A study of Rattus norvegicus with 39 samples.

Results

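The genes followed here encode 9 enzymes that carry cholesterol synthesis from squalene onward in rat liver: Sqle, Lss, Cyp51, Tm7sf2, Msmo1, Nsdhl, Hsd17b7, Sc5d and Dhcr7. They were chosen by gene symbol, older symbols included, and all 9 were measured, by 15 probe sets (sets of array probes for 1 transcript) among the 20826 that carry a single symbol. They are 9 of the 14217 genes on the Affymetrix rat expression array that could be named. RNA came from the left lateral lobe of rats 5 to 6 weeks old, 48 h after treatment, and the labels number the samples as biological replicates, with 1 array each. Strain and sex are not given in the sources used here. The control group holds 9 untreated rats that received no vehicle. ANIT (the usual abbreviation of alpha-naphthylisothiocyanate, which injures bile ducts) was given by mouth at 125 mg/kg in corn oil to 5 rats. DMN (dimethylnitrosamine, which injures hepatocytes and DNA) was given by mouth at 15 mg/kg in water to 5 rats, and NMF (N-methylformamide, another hepatotoxic agent) by intraperitoneal injection at 1000 mg/kg in saline to 5 rats. The other compound groups, also of 5 rats, received Caerulein (a peptide that overstimulates the pancreas) by intraperitoneal injection at 50 µg/kg in saline, DNP (dinitrophenol, an uncoupler of mitochondrial respiration) by mouth at 15 mg/kg in water, or Roziglitazone, the labels' spelling of the PPAR gamma agonist rosiglitazone, by mouth at 1000 mg/kg in methylcellulose. Compound, vehicle and route therefore differ from the controls together.

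Squalene, the last linear intermediate of cholesterol synthesis, is made from acetyl-CoA by the mevalonate pathway. Squalene epoxidase (Sqle) oxidises it and lanosterol synthase (Lss) folds the product into the first sterol, lanosterol; the remaining enzymes, which lie in the endoplasmic reticulum and on lipid droplets, remove methyl groups from lanosterol and move or reduce its double bonds until cholesterol is reached. The liver is a main site of this synthesis, and the genes are known targets of the transcription factor SREBP-2, which is released from the endoplasmic reticulum when membrane sterol is low and works with the CCAAT-binding factor NF-Y and with Sp1 at GC boxes.

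The sequence before the start of transcription was at hand for 8 of the 9 genes, all but Sqle, from RefSeq on the rat assembly GRCr8, and 4 of them are printed 5′ to 3′ because they show the whole range of CCAAT boxes among the members. Each run ends at the base before the annotated start, and capitals mark CCAAT or its reverse complement ATTGG. Msmo1, with 3 boxes, lies at chr16:29746863-29747112 on the plus strand, Hsd17b7, with 3, at chr13:84722755-84723004 on the minus strand, Nsdhl, with 5, at chrX:155817110-155817359 on the plus strand, and Cyp51, with none, at chr4:30991443-30991692 on the plus strand.
Msmo1: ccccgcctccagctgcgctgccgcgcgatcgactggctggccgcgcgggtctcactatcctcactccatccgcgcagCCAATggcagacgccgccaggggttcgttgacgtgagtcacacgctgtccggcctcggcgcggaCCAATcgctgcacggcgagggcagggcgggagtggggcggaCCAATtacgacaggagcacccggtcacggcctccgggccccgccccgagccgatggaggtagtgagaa
Hsd17b7: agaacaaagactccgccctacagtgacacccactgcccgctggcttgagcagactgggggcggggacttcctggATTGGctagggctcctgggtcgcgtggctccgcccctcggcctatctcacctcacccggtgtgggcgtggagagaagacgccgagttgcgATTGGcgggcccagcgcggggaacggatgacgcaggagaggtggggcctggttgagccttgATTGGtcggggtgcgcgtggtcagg
Nsdhl: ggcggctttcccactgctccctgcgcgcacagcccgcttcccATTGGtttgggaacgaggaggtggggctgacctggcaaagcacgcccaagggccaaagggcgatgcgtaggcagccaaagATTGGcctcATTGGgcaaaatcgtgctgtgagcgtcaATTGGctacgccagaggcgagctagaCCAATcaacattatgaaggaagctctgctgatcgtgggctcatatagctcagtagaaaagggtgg
Cyp51: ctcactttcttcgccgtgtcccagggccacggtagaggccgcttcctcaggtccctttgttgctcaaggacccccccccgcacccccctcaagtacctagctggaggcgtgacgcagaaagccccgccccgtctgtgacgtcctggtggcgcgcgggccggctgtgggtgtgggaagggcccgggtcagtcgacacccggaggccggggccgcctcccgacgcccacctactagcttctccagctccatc

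On either strand, CCAAT was found in 6 of the 8 members' promoters and in 35.0% of 21842 promoters of protein-coding genes over the same length. Lss, Tm7sf2 and Sc5d held 1 box each, and Dhcr7, like Cyp51, held none. The GC box GGGCGG was found in 7 of the 8, all but Nsdhl, against 38.9% of all promoters. CACCCCAC, a core of known sterol regulatory elements, was in none of the 8 and in 2.07% of all promoters, and CACNCCAC, in which N is any base, was in none of the 8 and in 4.80% of all. Every CACCCCAC is also a CACNCCAC. These are matches of letters in a window, not shown binding sites.

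All levels below are log2 intensities of the probe set that stands for the gene, and all differences are differences of group means on that scale, with the standard error (SE) of a linear model (limma) fitted to all 39 arrays. A gene was called where p, adjusted by Benjamini and Hochberg over all 14217 genes, was under 0.05. An intensity is not comparable between probe sets, so levels are compared only within a gene. Hepatocyte markers were high on every array: albumin (Alb) was at 14.32 or more, and the summed level of the 9 measured of 10 hepatocyte markers lay between 16.38 and 16.88 on the log2 scale on all 39 arrays. On 8 arrays, the log2 signal of the GAPDH 5′ control probe set was more than 1 lower, relative to the 3′ set, than the median array, a sign of shorter RNA: ANIT 5, DMN 3, DNP 1, NMF 3, Roziglitazone 1 and controls 1, 4 and 5.

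In a second fit, 3 arrays were left out as unlike their groups. Over all 14217 genes, each array was set against group means, both taken relative to the mean of all other arrays. The array labelled ANIT 3 correlated at r = 0.71 with the mean of the DMN group and at 0.30 with the other arrays labelled ANIT, and the array labelled Roziglitazone 2 correlated at 0.80 with the ANIT group and at -0.30 with its own. The array labelled DMN 2 correlated at 0.003 with its own group and at most at 0.12 with any other. Roziglitazone 1 (-0.22), control 5 (-0.086) and DNP 1 (-0.061) correlated less still with their own groups and were kept. Many arrays, controls among them, correlated best with another group, such as control 2 with the Caerulein group at 0.62. ANIT 3, DMN 2 and Roziglitazone 2 were therefore not picked by a cutoff on the correlation with the own group. Leaving out arrays unlike their groups narrows the pooled spread, which can add calls. The labels were kept as given, and results for the enzymes, each from 1 probe set, are given with these 3 arrays and, where the arrays changed a call or moved a value, without them.

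On average the 9 enzymes were high after ANIT, low after DMN and NMF, and near the control level after Caerulein, DNP and Roziglitazone. Not every enzyme followed the mean: Sqle differed by 0.02 after DMN and Dhcr7 by 0.10 after NMF. The mean of the 9 on each array, minus its control mean, was 1.41, 1.20, -0.65, 1.16 and 1.58 for ANIT 1 to 5, so that 4 of the 5 arrays lay above every control array and ANIT 3 lay below every control array. In the DMN group the values were -0.60, -0.06, -0.73, -0.61 and -1.55, and in the NMF group -0.74, -1.32, -0.46, -0.49 and -1.03. The controls ran from -0.27 to 0.26, so all NMF arrays and all DMN arrays except DMN 2 lay below every control array. The other groups overlapped the controls, from -0.35 to 0.89 after Caerulein, from -0.26 to 0.42 after DNP, and after Roziglitazone from -0.26 to 0.27 apart from Roziglitazone 2 at 1.07.

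**Figure D1:**
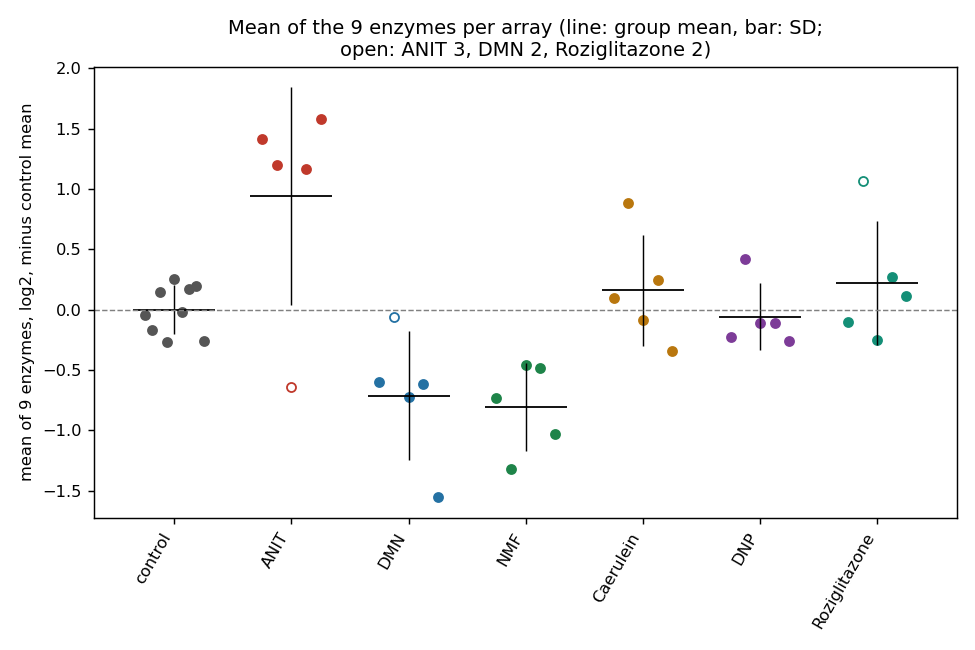
Mean log2 intensity of the 9 enzymes on each array minus the mean of the control arrays (vertical axis, log2) by treatment group (horizontal axis); each point is 1 array, lines are group means, bars are SDs and open points are ANIT 3, DMN 2 and Roziglitazone 2. The 4 other ANIT arrays lie between 1.16 and 1.58, ANIT 3 lies at -0.65, and the NMF arrays lie between -1.32 and -0.46.

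After ANIT, 5 of the 9 enzymes were called higher than in untreated liver and none lower, where 8.19% of all genes were called higher; without the 3 doubted arrays 7 of 9 were called, where the share of all genes was 8.90%. All 9 differences were above 0, with a median of 1.0, against -0.09 over all genes, and a median of 1.35 without the 3 arrays. The called genes were Sqle, Lss, Cyp51, Msmo1 and Hsd17b7, and Sc5d and Dhcr7 were called as well without the 3 arrays.

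Sqle, which adds an epoxide to squalene and is regarded as a rate-limiting step of the pathway, had the largest difference. Its level was 11.76, 11.48, 9.14, 11.45 and 11.66 on ANIT 1 to 5, and the controls ran from 8.35 to 10.14 with a median of 9.07. All ANIT arrays but ANIT 3 lay above every control, and ANIT 3 lay among the controls. The group means were 11.10 ± 1.10 (SD, n = 5) after ANIT and 9.12 ± 0.55 (SD, n = 9) in the controls, a difference of 1.98 ± 0.42 (SE) or 3.93-fold (limma adjusted p = 0.0010), and 2.47 ± 0.35 without the 3 arrays.

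Lss, the next enzyme of the pathway, makes lanosterol from the epoxide. Its level was 10.73, 10.24, 8.69, 10.25 and 11.12 on ANIT 1 to 5, against 8.55 to 10.12 with a median of 8.99 in the controls. ANIT arrays other than ANIT 3 were higher than all controls, the nearest of which was control 5, at 10.12, while the other controls did not exceed 9.13. The difference was 1.18 ± 0.32 (SE), or 2.27-fold (limma adjusted p = 0.0086), and 1.56 ± 0.29 without the 3 arrays.

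Cyp51, the P450 that removes the first methyl group of lanosterol, was at 12.69, 12.76, 11.01, 12.66 and 13.01 on ANIT 1 to 5. The controls ran from 10.91 to 11.90, so ANIT 3 was again the one array inside their range. The difference was 1.0 ± 0.31 (SE), or 2.0-fold (limma adjusted p = 0.025), and 1.35 ± 0.28 without the 3 arrays. Tm7sf2, a sterol C14 reductase that acts on the product of Cyp51, was not called: its arrays were at 12.16, 12.13, 10.41, 12.02 and 12.10 against 11.05 to 12.04 in the controls, and the difference was 0.26 ± 0.27 (SE; limma adjusted p = 0.52), with a 95% interval from -0.28 to 0.80. Without the 3 arrays it was 0.60 ± 0.22 (limma adjusted p = 0.053).

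The next 3 enzymes form the complex that removes the methyl groups at carbon 4. Msmo1, its oxidase, was at 12.76, 12.70, 10.33, 12.40 and 12.73 on ANIT 1 to 5 and at 10.48 to 11.59 in the controls, a difference of 1.09 ± 0.36 (SE; limma adjusted p = 0.035), and of 1.55 ± 0.28 without the 3 arrays. ANIT 3 lay below all controls and the 4 other ANIT arrays above them. Hsd17b7, the ketoreductase of the complex, was at 9.61, 9.55, 6.47, 9.29 and 10.64 against 6.80 to 9.30, and was higher by 1.36 ± 0.48 (SE; limma adjusted p = 0.046), and by 2.02 ± 0.38 without the 3 arrays. Here 1 control array, control 5 at 9.30, reached the level of ANIT 4, and the other controls did not exceed 8.13. Nsdhl, the dehydrogenase and decarboxylase of the complex, was not called: it was at 11.83, 11.74, 11, 11.92 and 12.12 against 11.05 to 11.86, a difference of 0.22 ± 0.21 (SE; limma adjusted p = 0.49) with a 95% interval from -0.20 to 0.63, and of 0.40 ± 0.20 without the 3 arrays (limma adjusted p = 0.19).

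The last steps before cholesterol missed the threshold over all 39 arrays and were called without the 3. Sc5d, the C5 desaturase, was at 11.88, 11.28, 9.97, 11.28 and 11.35 on ANIT 1 to 5 against 9.54 to 11.10 in the controls, and differed by 0.68 ± 0.32 (SE; limma adjusted p = 0.14), and by 0.98 ± 0.31 without the 3 arrays (limma adjusted p = 0.026). Dhcr7, which reduces the double bond of 7-dehydrocholesterol, was at 12.22, 11.88, 10.11, 12.14 and 12.40 against 10.57 to 11.59, and differed by 0.71 ± 0.27 (SE; limma adjusted p = 0.069), and by 1.12 ± 0.21 without the 3 arrays (limma adjusted p = 0.00021). For both genes the 4 other ANIT arrays lay above every control. The count of 5 fell to 2 where ANIT 1, ANIT 2 or ANIT 4 was left out, to 1 without ANIT 5 and to 3 without control 2 or control 9, and rose to 7 without ANIT 3. It was 2 with the replicate number as a block and 2 without the 8 arrays low in GAPDH 5′ signal. Over all genes, calls in either direction were 2344 in the main fit, 1695 with the block and 3068 without those 8 arrays.

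**Figure D2:**
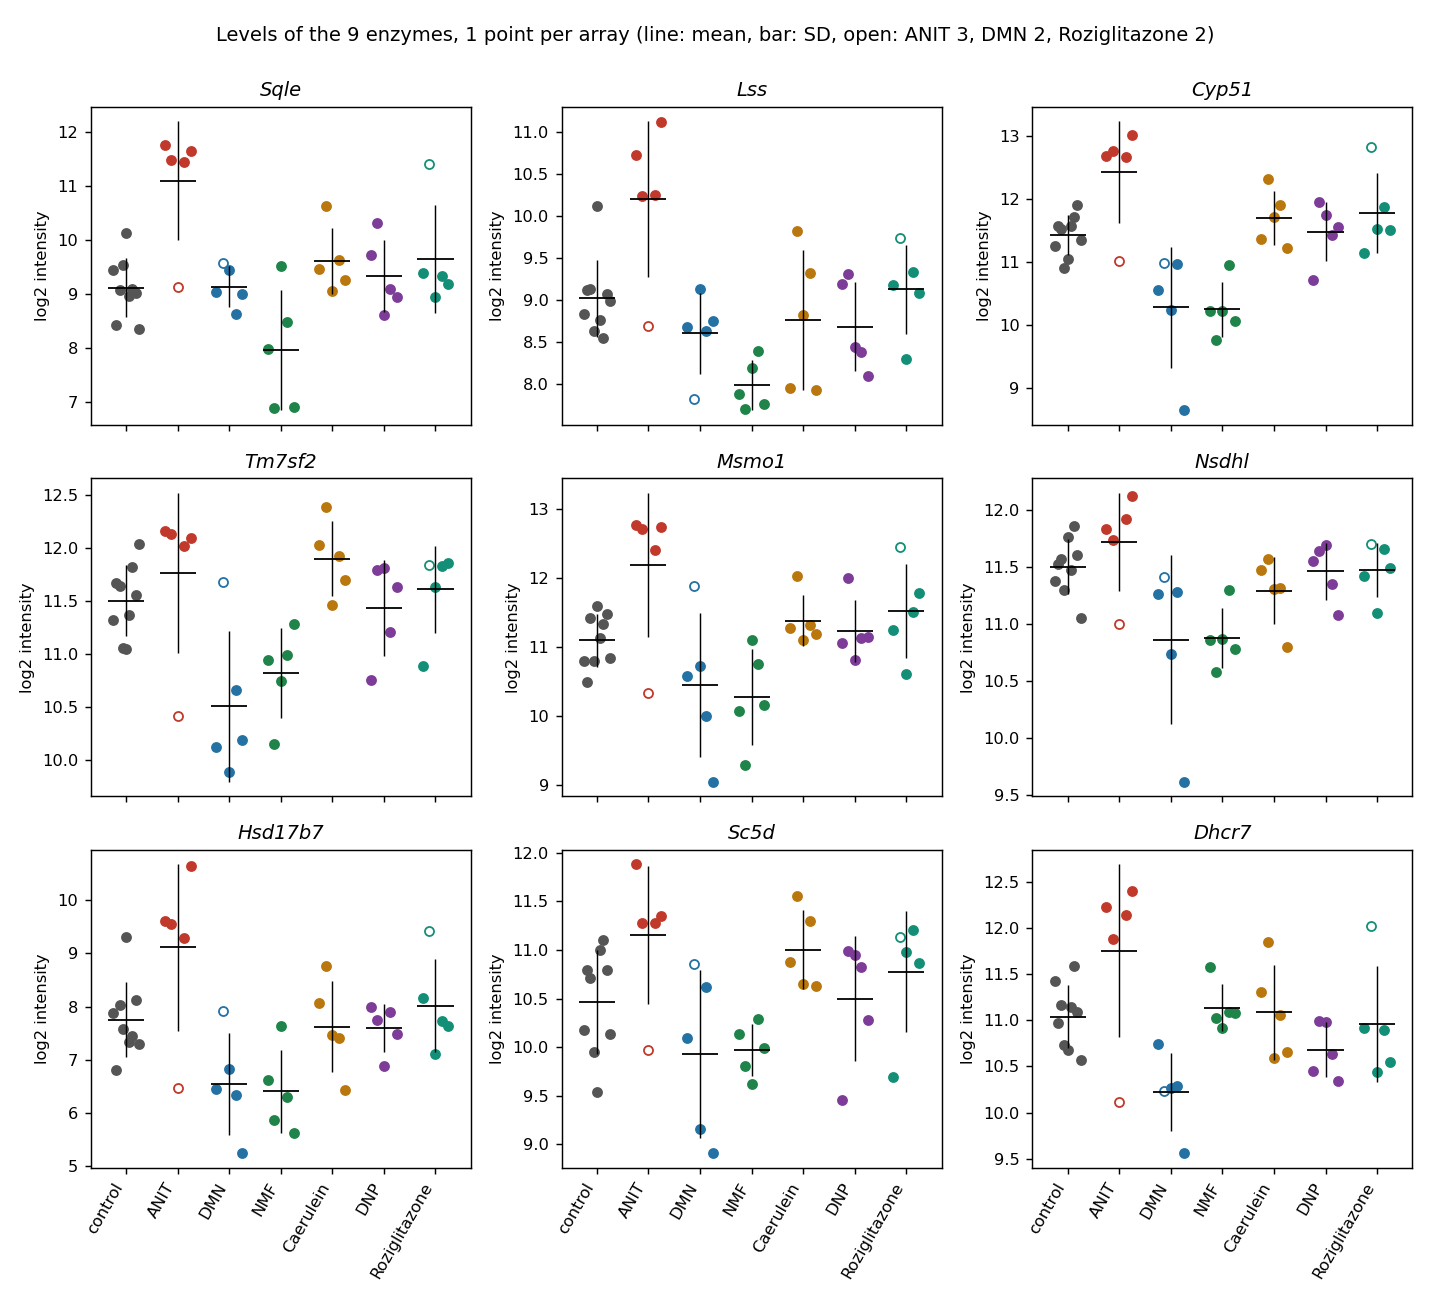
Log2 intensity (vertical axes) of each of the 9 enzymes on each of the 39 arrays by treatment group (horizontal axis); each point is 1 array, lines are group means, bars are SDs and open points are ANIT 3, DMN 2 and Roziglitazone 2. For Sqle, 4 ANIT arrays lie at 11.45 or above while the highest control lies at 10.14.

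After DMN, 4 of the 9 enzymes were called lower than in untreated liver and none higher, where 4.53% of all genes were called lower; without the 3 arrays 6 of 9 were called, where the share of all genes was 6.30%. The median difference was -0.65, against -0.06 over all genes, and -0.83 without the 3 arrays. The called genes were Cyp51, Tm7sf2, Nsdhl and Dhcr7, to which Msmo1 and Hsd17b7 were added without the 3 arrays.

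Cyp51 was at 10.56, 10.99, 10.24, 10.97 and 8.65 on DMN 1 to 5 against 10.91 to 11.90 in the controls. DMN 2 and DMN 4 reached the lowest control and DMN 5 lay far below the rest. The difference was -1.15 ± 0.31 (SE), or 2.22-fold lower (limma adjusted p = 0.013), and -1.33 ± 0.28 without the 3 arrays. Tm7sf2 was at 10.12, 11.68, 9.88, 10.66 and 10.19 against 11.05 to 12.04, so that all DMN arrays except DMN 2 lay below every control, and the difference was -1.0 ± 0.27 (SE; limma adjusted p = 0.012), and -1.29 ± 0.22 without the 3 arrays.

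Nsdhl was at 11.26, 11.41, 10.74, 11.28 and 9.62 on DMN 1 to 5 against 11.05 to 11.86 in the controls, a difference of -0.64 ± 0.21 (SE; limma adjusted p = 0.039), and of -0.78 ± 0.20 without the 3 arrays. Of the 5 arrays, 3 lay inside the control range, and DMN 5 was the lowest. Dhcr7 was at 10.74, 10.23, 10.27, 10.29 and 9.56 against 10.57 to 11.59, a difference of -0.82 ± 0.27 (SE; limma adjusted p = 0.047), and of -0.83 ± 0.21 without the 3 arrays. All its DMN arrays but DMN 1 lay below every control.

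Msmo1 was at 10.58, 11.88, 10.72, 9.99 and 9.04 on DMN 1 to 5, with DMN 2 above every control (10.48 to 11.59) and 2 arrays below every control. The difference was -0.65 ± 0.36 (SE; limma adjusted p = 0.28) with all arrays and -1.01 ± 0.28 (limma adjusted p = 0.013) without the 3. Hsd17b7 was at 6.44, 7.91, 6.82, 6.34 and 5.24 against 6.80 to 9.30, and differed by -1.21 ± 0.48 (SE; limma adjusted p = 0.11), and by -1.54 ± 0.38 (limma adjusted p = 0.0048) without the 3. Sc5d, at 10.09, 10.86, 9.16, 10.62 and 8.91, was not called either way, with a difference of -0.54 ± 0.32 (SE; limma adjusted p = 0.32), and of -0.77 ± 0.31 (adjusted p = 0.096) without the 3.

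The first pair of enzymes was not called in the DMN group. Sqle was at 9.04, 9.58, 9.44, 8.64 and 9.0 on DMN 1 to 5, all inside the control range of 8.35 to 10.14, and the difference was 0.02 ± 0.42 (SE; limma adjusted p = 0.98) with a 95% interval from -0.82 to 0.86; it was -0.09 ± 0.35 without the 3 arrays. Lss was at 8.68, 7.83, 9.14, 8.63 and 8.75 against 8.55 to 10.12, a difference of -0.42 ± 0.32 (SE; limma adjusted p = 0.46). Only DMN 2 lay below every control, and without the 3 arrays the difference was -0.22 ± 0.29 (limma adjusted p = 0.69). The count of 4 fell to 1 without DMN 3 or DMN 5 and to 2 without control 2, 3, 6, 7 or 8. It was 2 with each array centred on its median, 2 with every probe set as its own feature, 2 without the arrays low in GAPDH 5′ signal and 0 with the replicate number as a block. Over all genes, calls in either direction were 1386, 1279, 1279 and 1182 in these settings, in that order, and 1478 in the main fit.

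After NMF, 2 of the 9 enzymes, Lss and Cyp51, were called lower than in untreated liver and none higher, where 3.63% of all genes were called lower; without the 3 arrays, none of which is an NMF or control array, the pooled spread was smaller and 7 of 9 were called, where the share of all genes was 4.20%. The median difference was -0.82, against -0.05 over all genes. Sc5d and Dhcr7 were the genes not called in either fit.

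Lss was at 7.89, 7.70, 8.19, 8.40 and 7.76 on NMF 1 to 5, all below the lowest control at 8.55. The group means were 7.99 ± 0.30 (SD, n = 5) and 9.02 ± 0.46 (SD, n = 9), a difference of -1.04 ± 0.32 (SE), or 2.05-fold lower (limma adjusted p = 0.036), with an adjusted p of 0.010 without the 3 arrays. Cyp51 was at 10.23, 9.77, 10.22, 10.96 and 10.07 against 10.91 to 11.90, with 4 arrays below every control and NMF 4 just above the lowest. The difference was -1.18 ± 0.31 (SE), or 2.27-fold lower (limma adjusted p = 0.014).

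Sqle was at 7.98, 6.90, 9.52, 8.48 and 6.91 on NMF 1 to 5. The difference was -1.16 ± 0.42 (SE; limma adjusted p = 0.084), and was called without the 3 arrays (adjusted p = 0.020). Hsd17b7, at 6.62, 5.87, 7.63, 6.29 and 5.62 against 6.80 to 9.30 in the controls, differed by -1.35 ± 0.48 (SE; limma adjusted p = 0.082, and 0.012 without the 3 arrays). NMF 3 was the highest array of the group for both genes and lay inside the control range. Msmo1, at 10.07, 9.28, 11.10, 10.75 and 10.15, differed by -0.82 ± 0.36 (SE; limma adjusted p = 0.19, and 0.046 without the 3 arrays).

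Tm7sf2 was at 10.94, 10.15, 10.74, 10.99 and 11.28 on NMF 1 to 5, a difference of -0.68 ± 0.27 (SE; limma adjusted p = 0.12, and 0.027 without the 3 arrays). Nsdhl was at 10.86, 10.58, 10.87, 11.30 and 10.78, a difference of -0.63 ± 0.21 (SE; limma adjusted p = 0.055, and 0.032 without the 3 arrays). For both genes 4 of the 5 NMF arrays lay below every control. Sc5d was at 10.14, 9.81, 9.62, 10.29 and 9.99, inside the control range, a difference of -0.50 ± 0.32 (SE; limma adjusted p = 0.42). Dhcr7 was the one member whose difference was not below 0: it was at 11.57, 11.02, 10.91, 11.09 and 11.08 against 10.57 to 11.59, a difference of 0.10 ± 0.27 (SE; limma adjusted p = 0.91) with a 95% interval from -0.46 to 0.65. The count of 2 fell to 0 without NMF 2 and to 1 without NMF 1, NMF 5 or control 2, 3, 5 or 8, and rose to 4 without NMF 3. It ran from 0 with the replicate number as a block to 8 with array weights. Over all genes, calls in either direction were 926 with the block and 1900 with the weights, against 1063 in the main fit.

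**Figure D3:**
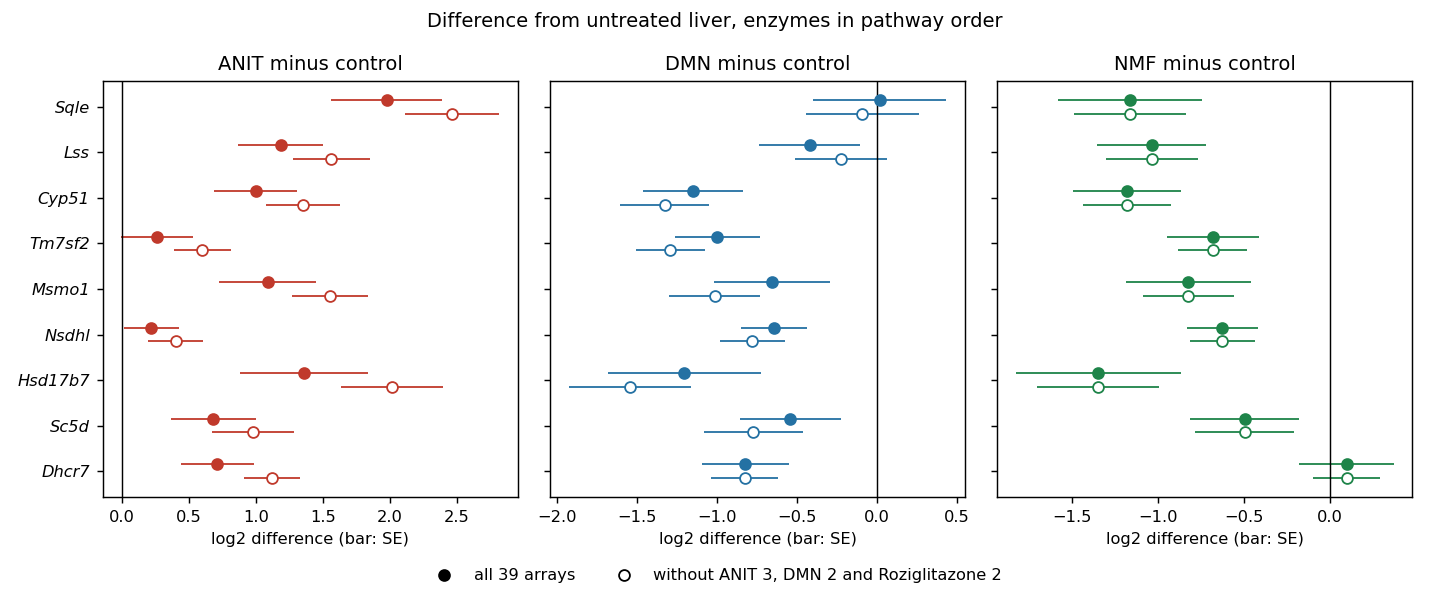
Log2 difference from control (horizontal axes) of the 9 enzymes in pathway order (vertical axis) after ANIT, DMN and NMF; points are limma estimates, bars are SEs, filled points use all 39 arrays and open points leave out ANIT 3, DMN 2 and Roziglitazone 2. Sqle differs by 1.98 after ANIT, 0.02 after DMN and -1.16 after NMF, and Dhcr7 by 0.71, -0.82 and 0.10.

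After Caerulein, DNP and Roziglitazone, limma called none of the 9 enzymes, and none had an unadjusted p under 0.05. In each of the 3 comparisons 0.00% of all genes were called, with 541, 199 and 1044 of 14217 genes at an unadjusted p under 0.05. The differences of the 9 enzymes ran from -0.25 to 0.54 after Caerulein, from -0.36 to 0.22 after DNP and from -0.08 to 0.54 after Roziglitazone, where they ran from -0.34 to 0.22 without the 3 arrays. Single arrays departed from their groups. Sqle was at 11.42 on Roziglitazone 2 and at 8.95 to 9.39 on the other arrays labelled Roziglitazone, Msmo1 was at 12.03 on Caerulein 2 against 11.10 to 11.31 on the rest of that group, and Msmo1 was at 11.99 on DNP 2 against 10.81 to 11.14 on the rest.

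The compound groups were also compared with each other directly. Between ANIT and DMN, both given by mouth but in different vehicles, 8 of the 9 enzymes were called higher after ANIT, where 1.46% of all genes were called, and without the 3 arrays 9 of 9, where 4.08% were. The median difference was 1.60, and 1.95 without the 3 arrays. Hsd17b7 differed by 2.56 ± 0.54 (SE; limma adjusted p = 0.0084), Cyp51 by 2.15 ± 0.36 (adjusted p = 0.0039) and Nsdhl, the least of the called genes, by 0.86 ± 0.23 (adjusted p = 0.038). Sc5d differed by 1.22 ± 0.36 (limma adjusted p = 0.055). With the 3 left out these differences were 3.56 ± 0.45 for Hsd17b7, 2.68 ± 0.32 for Cyp51, 1.18 ± 0.24 for Nsdhl and 1.75 ± 0.36 for Sc5d. Calls depended on the arrays fitted, for all genes as for these: 359 genes were called in either direction over all arrays. Where only the arrays of these 2 groups were fitted, limma called 0 of the 9 and 0 of all genes. Without the arrays low in GAPDH 5′ signal it called 1 of the 9 and 69 of all genes, without ANIT 5 it called 2 and 65, and without ANIT 1, ANIT 2 or ANIT 4 it called 4 of the 9, with 136, 98 and 79 of all genes.

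Between ANIT and NMF, which differ in vehicle and route, 7 of the 9 were called higher after ANIT, where 3.76% of all genes were, and without the 3 arrays 9 of 9, where 5.61% were. Sqle had the widest gap, 3.14 ± 0.47 (SE; limma adjusted p = 4.2e-05). Lss differed by 2.22 ± 0.36 and Hsd17b7 by 2.71 ± 0.54, and the smallest difference was that of Dhcr7, 0.62 ± 0.31 (SE; limma adjusted p = 0.24). Leaving out the 3 arrays, Sqle differed by 3.63 ± 0.39, Lss by 2.60 ± 0.32, Hsd17b7 by 3.37 ± 0.43 and Dhcr7 by 1.03 ± 0.23 (limma adjusted p = 0.0035).

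Between DMN and NMF limma called none of the 9, with 2 at an unadjusted p under 0.05, where 4.66% of all genes were called in either direction. Those 2 lay at opposite ends of the pathway. Sqle was higher after DMN by 1.18 ± 0.47 (SE; limma adjusted p = 0.18) and Dhcr7 lower by 0.92 on the log2 scale, at -0.92 ± 0.31 (adjusted p = 0.084). Without the 3 arrays Sqle differed by 1.07 ± 0.39 (limma adjusted p = 0.10) and Dhcr7 was called (limma adjusted p = 0.0090), where 2.67% of all genes were called lower, and leaving out NMF 3 alone also gave 1 call.

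Vehicle and route were shared within 2 pairs of groups. DMN and DNP were both given in water by mouth: Cyp51 alone was called, lower after DMN by -1.20 ± 0.36 (SE; limma adjusted p = 0.033), where 3.04% of all genes were called lower. Without the 3 arrays the Cyp51 difference was -1.38 ± 0.31, and 5 of the 9, namely Cyp51, Tm7sf2, Msmo1, Nsdhl and Hsd17b7, were called lower, where 5.19% of all genes were. The single call was lost without DMN 3, DMN 5, DNP 2, DNP 3, DNP 4 or DNP 5, and there were 2 calls without DNP 1 and 3 without DMN 2.

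NMF and Caerulein were both given in saline by injection, and 3 of the 9 were called lower after NMF, where 2.06% of all genes were: Sqle by -1.65 ± 0.47 (SE; limma adjusted p = 0.030), Cyp51 by -1.45 ± 0.36 (adjusted p = 0.0093) and Tm7sf2 by -1.08 ± 0.30 (adjusted p = 0.027). Without the 3 arrays Msmo1 and Sc5d were added, giving 5, where 2.63% of all genes were called. The count was 1 without Caerulein 2, Caerulein 4 or NMF 2, and 8 with array weights, which raised the calls over all genes from 781 to 1782.

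Across the 7 groups, the ANIT mean was the highest for every member except Tm7sf2, whose highest mean was that of Caerulein, at 11.90 ± 0.35 (SD, n = 5) against 11.76 ± 0.76 for ANIT; without the 3 arrays the ANIT mean was highest there too, at 12.10. Over all 39 arrays NMF had the lowest mean for Sqle, Lss, Cyp51, Msmo1 and Hsd17b7, and DMN for Tm7sf2, Nsdhl, Sc5d and Dhcr7. Once the 3 arrays were left out, DMN was also lowest for Cyp51 (10.10 against 10.25 after NMF), Msmo1 (10.08 against 10.27) and Hsd17b7 (6.21 against 6.41). With all arrays, every group overlapped the next in this order for all 9 genes. Without the 3, the ANIT arrays lay clear of the next group for Sqle, Lss, Cyp51, Msmo1 and Dhcr7. The margin was widest for Sqle, whose lowest ANIT array was at 11.45 and whose highest array in the next group, Caerulein, was at 10.63. The other neighbours still overlapped. These gaps appeared only once arrays picked as unlike their groups were left out, and the share of all genes with such a gap was not counted. The members also moved together from array to array: over the 39 arrays each correlated with the mean of the other 8 at r between 0.71 (Sc5d and Dhcr7) and 0.93 (Msmo1), and at 0.54 to 0.88 for deviations from the group means. With 36 arrays, the 3 left out, these ran from 0.70 to 0.94 and from 0.25 (Tm7sf2) to 0.79 (Msmo1). These points share their arrays, and these correlations describe them with no test.

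Further probe sets exist for 5 of the members. After ANIT the other sets of Lss (1.44 ± 0.33), Cyp51 (1.16 ± 0.26) and Hsd17b7 (1.74 ± 0.43) were called higher when every probe set was fitted as its own feature, while the set of Hsd17b7 used above then missed the threshold (limma adjusted p = 0.058). The other set of Nsdhl was called lower after DMN (-1.0 ± 0.28) and NMF (-1.16 ± 0.28). The other set of Cyp51 was not called after DMN (-0.53 ± 0.26) or NMF (-0.67 ± 0.26), unlike the set used above. Nor was the other set of Lss called after NMF (-0.60 ± 0.33, limma adjusted p = 0.38). On that set the NMF arrays ran from 7.16 to 8.37, inside or just below the controls at 7.37 to 8.58. The set of Lss used above also missed the threshold after NMF in this fit (limma adjusted p = 0.0504). The 3 sets of Sc5d were not called after ANIT, DMN or NMF, and the set nearest to a call was another one after DMN (-0.74 ± 0.26, limma adjusted p = 0.074).

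The neighbouring genes of the pathway were taken from lists chosen with earlier results of these data known. Of the mevalonate pathway up to squalene 7 of 9 listed genes were measured, and after ANIT 4 were called higher and none lower, where 8.19% of all genes were called higher, with a median of 1.26; without the 3 arrays all 7 were called higher, where the share was 8.90%, with a median of 1.69. Idi1, the isopentenyl diphosphate isomerase, differed by 2.36 ± 0.47 (SE; limma adjusted p = 0.00055) and Mvd, the mevalonate diphosphate decarboxylase, by 1.91 ± 0.38 (adjusted p = 0.00053), and by 2.98 ± 0.37 and 2.57 ± 0.20 without the 3 arrays. After DMN and NMF limma called none of these 7, with 2 and 1 at an unadjusted p under 0.05, and their medians were -0.29 and -0.43; without the 3 arrays 3 were called lower after DMN and 2 after NMF, where 6.30% and 4.20% of all genes were.

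Of 4 further genes listed for the steps after squalene, 3 were measured. After ANIT 1 was called higher over all arrays (median 0.47), where 8.19% of all genes were. Without the 3 arrays 2 were called higher (median 0.90), where the share was 8.90%. Erg28, an endoplasmic reticulum protein that holds C4 demethylation enzymes together, was called higher after ANIT in both fits (1.35 ± 0.29, limma adjusted p = 0.0012, and 1.76 ± 0.21 without the 3). Ebp, the isomerase that acts before Sc5d, differed by 0.47 ± 0.25 after ANIT (limma adjusted p = 0.19) and was called without the 3 arrays, at 0.90 ± 0.15. It was called lower after DMN (-0.75 ± 0.25, limma adjusted p = 0.047, and -0.97 ± 0.15 without the 3), and after NMF it differed by -0.61 ± 0.25 (adjusted p = 0.14) and was called without the 3 (adjusted p = 0.0035).

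Of 11 measured of 13 regulators of sterol sensing, 1 was called higher and 1 lower after ANIT, where 8.19% of all genes were called higher and 8.29% lower; without the 3 arrays 2 were called higher and 1 lower, where the shares were 8.90% and 7.06%. Scap, the escort protein of SREBP, was higher by 0.61 ± 0.19 (SE; limma adjusted p = 0.022), and by 0.79 ± 0.18 without the 3. Insig2, which retains that escort in the endoplasmic reticulum, was lower, at -1.35 ± 0.22 (limma adjusted p = 5e-05) and -1.52 ± 0.21. Insig1, its paralog, differed by 0.99 ± 0.47 after ANIT, -0.36 ± 0.47 after DMN and -0.48 ± 0.47 after NMF, and was called in none of the 3 with or without the arrays. Srebf2, which encodes SREBP-2, differed by 0.45 ± 0.23 after ANIT, -0.34 ± 0.23 after DMN and -0.55 ± 0.23 after NMF, with limma adjusted p of 0.18, 0.40 and 0.16. It was called higher after ANIT (0.67 ± 0.22, limma adjusted p = 0.033) without the 3 arrays, and in neither other group. Stard4, a cholesterol carrier, was called lower after DMN (-1.09 ± 0.28) and NMF (-1.28 ± 0.28), the only called regulator after NMF, and after DMN Insig2 was also lower (-0.92 ± 0.22). These counts of 2 and 1 held without the 3 arrays, and the shares of all genes called lower were 4.53% and 3.63%.

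Of 10 measured of 11 genes of sterol outflow and bile acid synthesis, 4 were called lower and none higher after ANIT, where 8.29% of all genes were called lower, and 5 without the 3 arrays, where 7.06% were. Abcg5 and Abcg8, which together form the canalicular sterol exporter, were at -1.97 ± 0.51 and -1.54 ± 0.38, and at -2.40 ± 0.45 and -1.73 ± 0.40 without the 3. After NMF 4 were called lower in both fits, where 3.63% of all genes were, among them Cyp7a1, the rate-limiting enzyme of bile acid synthesis, at -2.69 ± 0.68. After DMN 1 was called lower, Cyp27a1, at -0.57 ± 0.14, where 4.53% of all genes were, and without the 3 arrays Cyp7a1 was called as well (-1.95 ± 0.67, limma adjusted p = 0.047).

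All 8 genes listed for fatty acid synthesis were measured, among them Pklr, which encodes the pyruvate kinase of liver, an enzyme of glycolysis. After DMN 7 of them were called lower, where 4.53% of all genes were, and after NMF all 8, where 3.63% were, and both counts were the same without the 3 arrays. Scd, the stearoyl-CoA desaturase, differed by -2.0 ± 0.33 and -4.61 ± 0.33. After ANIT the listed genes were split, with Elovl6 called higher (1.27 ± 0.45) and 3 called lower, Pklr (-3.22 ± 0.38) and Scd (-2.44 ± 0.33) the most. The shares of all genes called were 8.19% higher and 8.29% lower. When the 3 arrays were left out, 2 were called higher and 3 lower, where 8.90% and 7.06% of all genes were. Elovl6 was then at 1.87 ± 0.37.

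**Figure D4:**
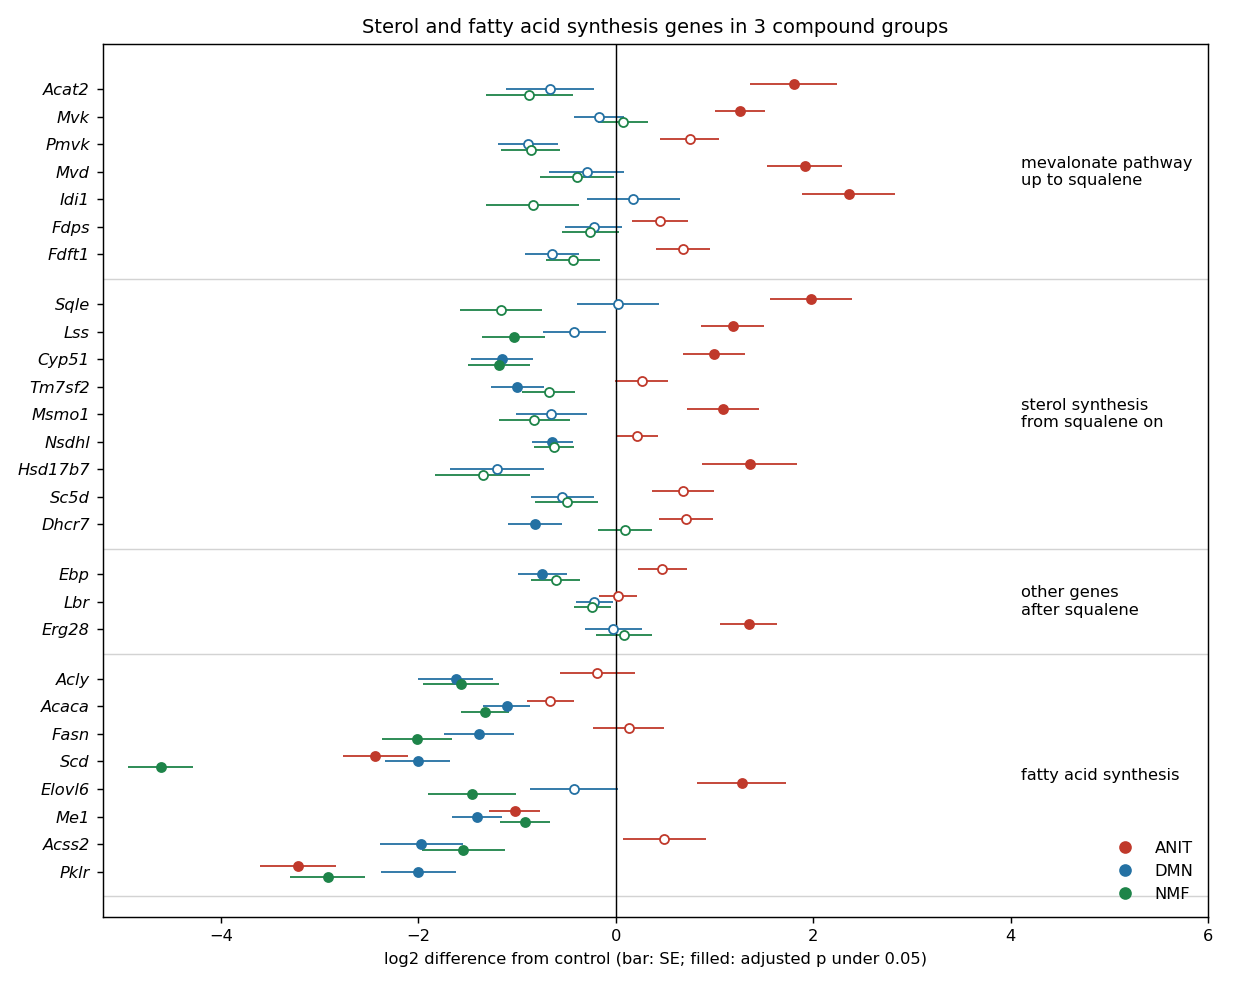
Log2 difference from control (horizontal axis) after ANIT, DMN and NMF. The vertical axis shows the 9 enzymes, other measured sterol synthesis genes and the genes listed for fatty acid synthesis. Points are limma estimates over all 39 arrays, bars are SEs and filled points are genes called at an adjusted p under 0.05. After ANIT the sterol genes lie at or above 0 while Scd lies at -2.44, and after NMF Scd lies at -4.61.

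The 10 genes outside the members whose levels followed the mean of the 9 most closely over the 39 arrays were Acat2 (r = 0.95), Fdft1 (0.92), Acss2 (0.91), Ebp (0.87), Idi1 (0.86), Mvd (0.83), Slc27a5 (0.83), Fasn (0.82), Erg28 (0.81) and Col18a1 (0.81). All 10 were also the closest without the 3 arrays. Within groups, for deviations from the group means, the correlation was 0.94 for Acat2, which makes acetoacetyl-CoA, and 0.91 for Fdft1, the squalene synthase, and fell to 0.67 for Slc27a5, a bile acid CoA ligase, and 0.56 for Col18a1, a basement membrane collagen. Over the 36 other arrays these within-group values were 0.85, 0.82, 0.45 and 0.049, and those of Ebp and Mvd were 0.44 and 0.41.

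Markers of other cells moved with some groups. Neutrophil markers, 5 of 5 measured, had a summed log2 level of 8.35 to 12.77 with a median of 11.32 after DMN. In the controls it was 8.43 to 10.14 with a median of 9.48. Of the 5, 4 were called higher after DMN, where 834 of all 14217 genes were. The summed level of stellate cell markers, 7 of 7 measured, ran from 11.41 to 11.91 after DMN and from 11.19 to 11.66 after NMF. All these arrays lay below the lowest control at 11.93, but such a sum follows the brightest markers. Singly, 1 of the 7 was called lower after DMN and 3 after NMF, where 4.53% and 3.63% of all genes were. In each group 2 of the 7 had a difference above 0. The summed level of pancreatic acinar markers, 7 of 7 measured, ran from 10.38 to 11.11 in the controls. It ran from 8.87 to 9.95 after ANIT, 9.04 to 10.42 after DMN and 8.89 to 9.85 after NMF. Singly, 3, 1 and 2 of the 7 were called lower after ANIT, DMN and NMF, and none higher. Of macrophage markers, 6 of 7 measured, 1, 1 and 3 were called lower in these groups, and none higher. The shares of all genes called lower were 8.29%, 4.53% and 3.63%. No marker was at 0, since array intensities have a background. The part of these cells in the results was not tested, and in liver pieces fewer cells of a type and less RNA per cell cannot be told apart.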

How the data were processed

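The values deposited by the authors are linear probe set intensities, from 5.4 to 23152.1. The submitters' processing notes name RMA and affy with no version; RMA usually ends on log2, and how the values came to be linear is not given in the sources used here. The plan assumed log2 values, so the log2 was taken here. Symbols came from the platform annotation, updated through a RefSeq gene table; 20826 probe sets had 1 symbol, 436 several and 9780 none, and only the first were used. Each of 14217 genes was represented by its brightest probe set, judged by the mean of all arrays. One limma model (version 3.58.1, R 4.3.3, default eBayes) held all 39 arrays and 7 group means, with Benjamini-Hochberg adjustment over all genes and calls at 0.05. The script was tested on simulated data. Mean intensity per array ran from 348 to 363; precision is limited by how many arrays a group has.

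The members and lists were chosen with earlier results of these data known. The text names the 9 members, up to 2 called genes per list and contrast with the largest differences, a few set genes such as Ebp, Srebf2 and Insig1 (others are not reported here), and the 10 genes that correlated best with the members' mean. Replicate numbers were not taken to pair arrays. Same-numbered arrays correlated above 0.1 in 58 of 105 pairs, and in all 5 pairs for 1 of 21 pairs of groups. Differently numbered arrays were not correlated, so whether the numbers mark shared handling was not tested. Alternatives were scaling, filtering, choice of probe set, the arrays fitted, array weights, variance model, replicate block, RNA quality, an offset of 16 and leaving out arrays.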

Additional observations from a re-analysis of the deposited data

Results flagged for a closer look

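In 12 of 63 sets of arrays (9 enzymes in 7 groups), the highest or lowest array lay farther from the nearest other array than Dixon's 95% limit allows; chance flags about 1 in 20, and the enzymes share their arrays. The array labelled ANIT 3 was the low array of its group for Sqle (9.14, others 11.45 to 11.76), Cyp51 (11.01, others 12.66 to 13.01), Tm7sf2 (10.41, others 12.02 to 12.16), Msmo1 (10.33, others 12.40 to 12.76) and Dhcr7 (10.11, others 11.88 to 12.40). The array labelled Roziglitazone 2 was high for Sqle at 11.42, where the rest of its group lay between 8.95 and 9.39. Roziglitazone 1, 1 of the 8 arrays low in GAPDH 5′ signal, was low for Tm7sf2 at 10.89 (others 11.63 to 11.86) and for Sc5d at 9.69 (others 10.87 to 11.21). Control 5, another of those 8, was high for Lss at 10.12 (others 8.55 to 9.13). Msmo1 was high on Caerulein 2 at 12.03 (others 11.10 to 11.31) and on DNP 2 at 11.99 (others 10.81 to 11.14). Dhcr7 was high on NMF 1 at 11.57 (others 10.91 to 11.09).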

How the results depend on the processing

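Counts of the 9 enzymes called depended on the setting, while no called difference changed sign: of 2493 differences under alternatives 88 changed sign, and in all 88 the enzyme was called in neither fit. With the replicate block, the calls were 2 for ANIT, 0 for DMN and 0 for NMF against control, where 1695, 1182 and 926 of all genes were called. The replicate numbers were not taken to pair the arrays, but whether they mark shared handling was not tested. Without arrays low in GAPDH 5′ signal the calls were 2, 2 and 1, where 3068, 1279 and 1209 of all genes were called. For ANIT against DMN there was then 1 call. With only the 2 groups fitted, ANIT against DMN had 0 calls and NMF against control had 4. With each array centred on its median the calls were 2 for DMN, 1 for NMF, 0 for DMN against DNP and 1 for NMF against Caerulein. With every probe set as its own feature they were 2 for DMN and 1 for NMF. Array weights gave 8 for NMF, 1 for DMN against NMF, 2 for DMN against DNP and 8 for NMF against Caerulein. They also raised the calls over all genes, to 1900 for NMF against control and 1782 for NMF against Caerulein. The GAPDH covariate gave 4 for NMF. Without ANIT 3, DMN 2 and Roziglitazone 2 the calls were 7 for NMF, 1 for DMN against NMF, 5 for DMN against DNP and 5 for NMF against Caerulein. DMN against DNP had 2 calls with quantile normalization, the filter on dim genes, the trended variance model or the covariate, and 0 with the mean of probe sets or only the 2 groups. For these shifts the cause was not tested.

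With 1 array left out at a time, calls ranged from 1 to 7 for ANIT, 1 to 4 for DMN and 0 to 4 for NMF against control, 2 to 9 for ANIT against DMN, 5 to 9 for ANIT against NMF, 0 to 1 for DMN against NMF, 0 to 3 for DMN against DNP and 1 to 3 for NMF against Caerulein. Caerulein, DNP and Roziglitazone against control had 0 calls among the 9 enzymes by limma under every alternative run. Over all genes, array weights gave 5 calls for Caerulein, 0 for DNP and 9 for Roziglitazone.

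Small uncalled differences that crossed 0 were Tm7sf2 after ANIT (-0.0032 without arrays low in GAPDH 5′ signal); Sqle after DMN (-0.19 with the replicate block, -0.029 with the covariate, -0.091 without the 3 arrays, and -0.091 to 0.15 with 1 array left out); Lss in DMN against DNP (0.076 centred, 0.11 with array weights, 0.11 without the 3 arrays, and -0.23 to 0.11 with 1 left out), where Sqle ran from -0.38 to 0.044; and Dhcr7 in NMF against Caerulein (-0.094 with array weights, -0.076 to 0.23 with 1 left out) and after NMF (-0.015 to 0.16).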
